A study of Mus musculus with 12 samples.

Results

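Described here were 7 genes of the B lineage, Cd79a, Cd79b, Pax5, Ebf1, Vpreb3, Ighm and Rag1, taken by name from a table of 22317 gene symbols, in which all 7 were found. They were followed over 12 libraries of poly(A) RNA from wild-type male BALB/c mice, 8 weeks old, in 4 groups of 3. The injury was photothrombosis (PT), in which light clots the vessels of a chosen area, and each group is the organ opposite to the injured one. SB2 and SB4 are labelled as brain cortex taken 2 and 4 days after skull PT, and BS2 and BS6 as interparietal bone, a bone of the skull vault, taken 2 and 6 days after brain PT. No uninjured control was analysed here, and each library is of whole tissue, with all its cell types and blood mixed.

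B cells arise in bone marrow. In a pro-B cell the factors Ebf1 and Pax5 set the B lineage program, and Rag1 cuts the heavy chain locus so that it can be joined. The joined heavy chain, Ighm, then pairs with a surrogate light chain and with the signalling chains Cd79a and Cd79b in the pre-B cell receptor, and later with a true light chain in the B cell receptor. Vpreb3 is a precursor B cell protein that binds newly made heavy chains. Marrow of the skull lies next to the meninges, and B cells of the meninges are known to come in part from it. Ebf1 is also used outside the B lineage, in stromal, fat and vessel wall cells, and the count of a bulk library does not say which cell a read came from.

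The groups did not all hold the tissue on their labels. The summed level of 6 neuron genes, in CPM (counts scaled to library size), was 7520 to 7854 in the SB4 libraries and 7215 to 7391 in BS2, against 23.8 to 54.1 in SB2 and 37.0 to 92.4 in BS6. The sum of 5 bone-forming cell genes was 36560 to 41650 in SB2 and 19060 to 79090 in BS6, against 7.88 to 10.7 in SB4 and 10.3 to 18.1 in BS2. The libraries labelled SB2, named as brain, thus held bone transcripts, and those labelled BS2, named as skull bone, held brain transcripts. Groups are therefore written by label throughout, and a difference between SB4 and SB2, or between BS6 and BS2, runs between a brain-rich and a bone-rich group as well as between the labelled days, which cannot be told apart. Library totals were 14126082 to 18972654 counts. Within BS6, replicate 2 stood apart: its 8 neutrophil genes summed to 25090 CPM against 1454 and 3413 in replicates 1 and 3, and its bone-forming genes to 19060 CPM against 55510 and 79090.

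The promoters of 3 members are shown because the values of their genes carry the account below: Cd79a as a gene of the whole lineage, and Vpreb3 and Rag1 as genes of its precursors. Each runs from 250 bases before to 50 after a start annotated by RefSeq on GRCm38.p6, which for Vpreb3 lies inside the longer GENCODE gene, at chr7:24897247-24897546 (plus strand), chr10:75948050-75948349 (plus strand) and chr2:101649483-101649782 (minus strand, printed 5′ to 3′ of the gene). Capitals mark the letters found in a search of both strands for 4 motifs: the octamer ATTTGCAT, the E boxes CAGGTG and CAGCTG, and CCCNNGGG, the core letters of the motif bound by EBF proteins.
Cd79a: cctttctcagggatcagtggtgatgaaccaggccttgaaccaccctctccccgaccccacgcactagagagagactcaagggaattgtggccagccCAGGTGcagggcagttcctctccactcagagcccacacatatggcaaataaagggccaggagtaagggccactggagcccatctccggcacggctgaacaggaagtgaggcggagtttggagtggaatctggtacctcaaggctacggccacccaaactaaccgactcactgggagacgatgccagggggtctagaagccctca
Vpreb3: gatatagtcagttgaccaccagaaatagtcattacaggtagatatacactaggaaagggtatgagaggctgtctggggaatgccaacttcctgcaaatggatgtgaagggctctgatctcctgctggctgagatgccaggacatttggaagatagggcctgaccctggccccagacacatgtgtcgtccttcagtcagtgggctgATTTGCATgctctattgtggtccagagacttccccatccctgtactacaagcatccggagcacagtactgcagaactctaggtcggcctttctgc
Rag1: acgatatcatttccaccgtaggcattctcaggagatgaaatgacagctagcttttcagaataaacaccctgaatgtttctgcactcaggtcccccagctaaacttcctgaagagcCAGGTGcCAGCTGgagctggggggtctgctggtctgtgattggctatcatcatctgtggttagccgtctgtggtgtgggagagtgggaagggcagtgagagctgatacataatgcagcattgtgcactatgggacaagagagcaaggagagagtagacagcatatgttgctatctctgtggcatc
The Cd79a window held CAGGTG at -154 from the start, the Vpreb3 window held the octamer at -45, and the Rag1 window held CAGGTG at -135 and CAGCTG at -128. Among 32817 mouse promoter windows of the same length, 1.74% held the octamer, 20.2% CAGGTG, 16.3% CAGCTG and 13.7% CCCNNGGG. The Pax5 window and both Ebf1 windows held none of the 4, which says only that these letters are not there. The same holds for CCCNNGGG, which was found in no member window, that of Cd79a included. Only exact letters were searched, so a site that departs from them by a letter is not marked. Cd79b and Ighm had no promoter entry.

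On mm10 with the GENCODE M21 annotation, Cd79a lies at chr7:24897381-24902197 on the plus strand and Cd79b at chr11:106311341-106314762 on the minus strand. Pax5 lies at chr4:44524757-44710487 (minus), Ebf1 at chr11:44617317-45008091 (plus), Vpreb3 at chr10:75943057-75949657 (plus), Rag1 at chr2:101638282-101649501 (minus) and Ighm, a constant region gene, at chr12:113418558-113422730 (minus). The exons of 5 members overlap no other annotated exon. Pax5 shares 761 exon bases with transcripts of the opposite strand, and Rag1 shares 80 with B230118H07Rik on its own strand, so that reads there could belong to either gene.

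All 7 genes were read in the bone-rich libraries, and the heavy chain stood above the rest. Per kilobase of exon, Ighm averaged 20.3 CPM in the libraries labelled SB2 and 49.6 in BS6. Next came Cd79a (4.55 and 9.64), Cd79b (4.04 and 8.31) and Ebf1 (3.95 and 5.56), and the library ranges of Ebf1 and Cd79b met in either group. Vpreb3 (0.836 and 5.48), Pax5 (0.444 and 1.18) and Rag1 (0.0879 and 0.410) were lower. On this scale per kilobase the mean of Vpreb3 was close to that of Ebf1 in BS6 but not in SB2. The BS6 libraries were uneven, with 5.31, 1.34 and 9.78 for Vpreb3 in replicates 1 to 3 against 6.40, 4.38 and 5.91 for Ebf1.

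**Figure D1:**
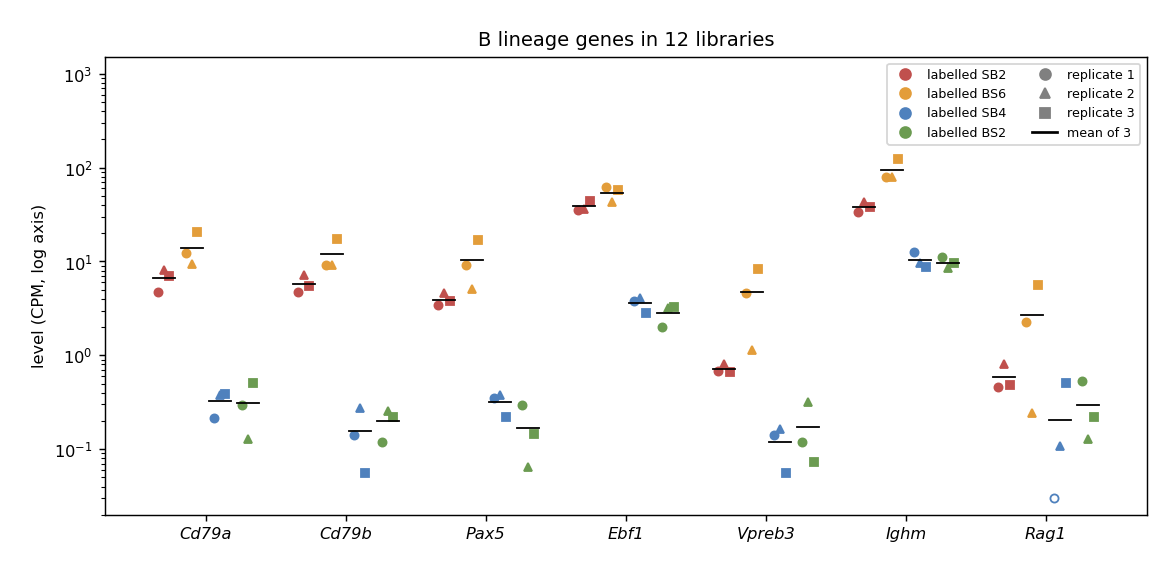
Level of each gene in each library, in CPM with TMM scaling on a log axis, with colours for the 4 labelled groups, marker shapes for replicates 1 to 3 and a bar for the group mean. The open circle at the lower edge is Rag1 in SB4 replicate 1, with a count of 0, and BS6 replicate 2 (triangles) lies far below its group for Vpreb3 and Rag1.

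Ebf1, a lineage factor like Pax5, had 35.5, 36.1 and 43.9 CPM in replicates 1 to 3 of SB2 and 62.4, 42.7 and 57.7 in BS6. BS6 replicate 2 fell within the SB2 range, so the groups overlapped. In SB4 it had 2.84 to 4.08 CPM and in BS2 2.01 to 3.27, from 34 to 75 counts a library. Pax5, which holds cells to the B lineage, had 3.42, 4.60 and 3.79 CPM in SB2 and 9.19, 5.13 and 17.1 in BS6, all of the latter above the former. Its SB4 and BS2 libraries held 1 to 7 counts each.

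Cd79a had 4.73, 8.06 and 7.08 CPM in SB2 and 12.4, 9.36 and 20.4 in BS6, with no overlap. Cd79b, its partner in the signalling pair, had 4.67, 7.26 and 5.43 CPM and then 9.13, 9.18 and 17.4, again without overlap. In SB4 and BS2 the counts of either gene were 1 to 7 a library. For Ighm the values were 33.6, 43.4 and 38.0 CPM in SB2 and 79.7, 78.8 and 122.1 in BS6. Every BS6 library was above every SB2 library, and replicate 2 was level with replicate 1, as it was for Cd79b. Unlike its partners Ighm was well read in the brain-rich libraries, with 8.69 to 12.6 CPM in SB4 and 8.45 to 11.1 in BS2, from 132 to 189 counts.

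Within BS6 the precursor genes were the least even. Vpreb3 had 0.684, 0.799 and 0.672 CPM in SB2 and 4.56, 1.15 and 8.40 in BS6, a 7.32-fold range among BS6 libraries. Rag1 had 0.456, 0.799 and 0.488 CPM in SB2 and 2.28, 0.242 and 5.60 in BS6, a 23.2-fold range that rests on 35, 4 and 88 counts. BS6 replicate 2 was below every SB2 library for Rag1 and above all of them for Vpreb3. The coefficient of variation over the 3 BS6 libraries was 99.9% for Rag1, 77.1% for Vpreb3, 57.9% for Pax5, 40.5% for Cd79a, 39.9% for Cd79b, 26.5% for Ighm and 19% for Ebf1. Within SB2 it was lowest for Vpreb3 (9.82%) and highest for Rag1 (32.6%). The other members lay between, from 12.1% for Ebf1 to 25.9% for Cd79a. In the brain-rich libraries Vpreb3 had 1 to 5 counts and Rag1 0 to 9, and the count of 0, in SB4 replicate 1, allows up to 3 counts (0.212 CPM without TMM factors).

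In the comparison of SB4 with SB2, that of days 4 and 2 after skull PT by the labels, 6 of the 7 members passed the filter on low counts and fell (quasi-likelihood test of edgeR, p adjusted by Benjamini-Hochberg). A call needed an adjusted p under 0.05 and a log2 fold change beyond 1 in either direction. Of all 17293 genes tested, 28.6% fell. Ebf1 and Ighm had 10 or more counts in every library, but Cd79a, Cd79b, Pax5 and Vpreb3 passed the filter through the SB2 libraries alone and had to differ, so their calls add nothing to their values. Cd79b fell by 5.12 on the log2 scale (SE 0.40, adjusted p = 2.87e-07), or by 5.80 without SB4 replicate 2, then Cd79a by 4.26 (SE 0.33) and Pax5 by 3.59 (SE 0.32). Ebf1 fell by 3.42 (SE 0.15, adjusted p = 1.56e-09), Vpreb3 by 2.51 (SE 0.52, adjusted p = 0.000905) and Ighm by 1.90 (SE 0.15, adjusted p = 4.14e-07). Libraries of the groups did not overlap for these 6, which held for 43.1% of all genes in that direction. Rag1 did not pass the filter, and in a fit without one its log2 change was -1.42 (SE 0.74, adjusted p = 0.10). SB4 was brain-rich and SB2 bone-rich, so the difference also runs between tissues. With whole tissue, the tissue sampled, fewer B lineage cells and less RNA per cell cannot be told apart.

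In BS6 against BS2, days 6 and 2 after brain PT by the labels, the same 6 genes were called and rose, beside 29% of 17311 genes. Cd79a, Cd79b, Pax5 and Vpreb3 passed the filter here through the BS6 libraries alone, with the same limit on their calls. Cd79b was higher by 5.91 (SE 0.45, adjusted p = 4.69e-05), Pax5 by 5.89 (SE 0.68), Cd79a by 5.52 (SE 0.51), Vpreb3 by 4.74 (SE 0.93, adjusted p = 0.00356), Ebf1 by 4.30 (SE 0.25) and Ighm by 3.30 (SE 0.22, adjusted p = 3.23e-05) on the log2 scale. With one library left out Pax5 reached 6.58 (without BS2 replicate 1), and Vpreb3 went from 4.03 (without BS6 replicate 3) to 5.49 (without BS2 replicate 2). Libraries of the 2 groups did not overlap for these 6, as for 39.7% of genes. Rag1 was below the filter, and without it rose by 3.18 (SE 1.11, adjusted p = 0.0433), with overlapping libraries. It passed the filter when BS2 replicate 1, 2 or 3 was left out, at 3.93, 2.80 and 3.00, and was not called by edgeR (adjusted p = 0.0632, 0.117 and 0.109). Of the 6 genes tested Ighm had the smallest log2 change in either comparison, and that of Rag1 in the fits without a filter was smaller still. Tested directly over the 12 libraries, the difference between both changes was called for Ebf1 and Ighm, beside 37.8% of 18068 genes in that direction. The other 5 members were called too, but entered the fit through the bone-rich libraries alone, so that their calls add nothing to their values.

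**Figure D2:**
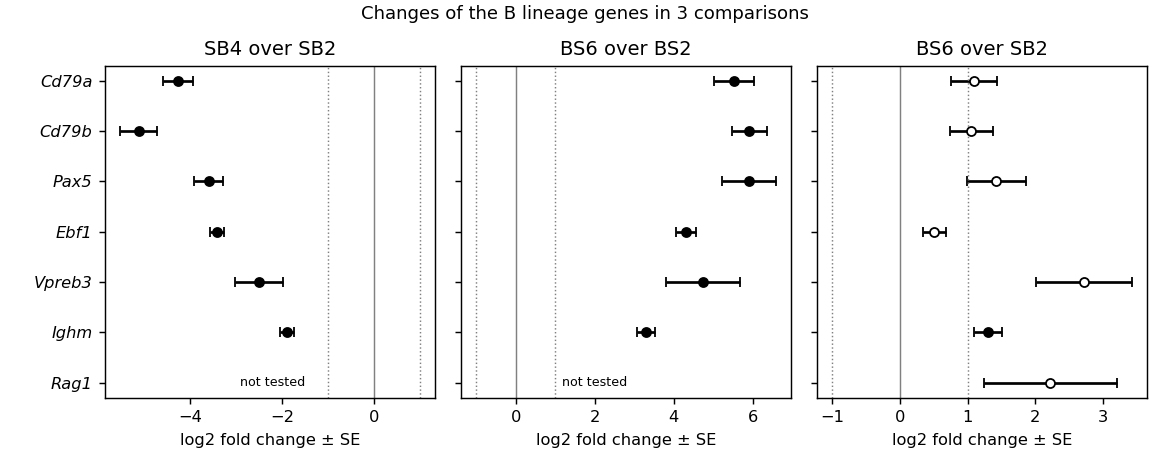
Log2 fold change with its standard error for each gene in 3 comparisons of 3 against 3 libraries by edgeR; filled points were called, open points were not, and dotted lines mark a log2 fold change of -1 and 1. All tested genes lie below 0 in SB4 over SB2 and above 0 in BS6 over BS2, and in BS6 over SB2 Ighm alone was called.

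Most other genes listed with the B lineage moved the same way in these 2 comparisons. The lists were written with earlier results of these data known, and their genes are not all confined to B cells. Of 14 further B lineage transcription factors 11 fell and 2 rose in SB4 against SB2, with a median log2 change of -2.42 against -0.01 over all genes, and in BS6 against BS2 11 rose and 1 fell. The 2 that rose in SB4 were Bach2, a repressor of plasma cell fate (1.27, SE 0.14), and Bcl11a (5.49, SE 0.10), and both are also used by neurons. Of B cell surface and signalling genes 13 of 16 tested fell in SB4 against SB2 and 14 of 18 rose in BS6 against BS2, against 28.6% and 29% of all genes. Within BS6, Spi1, Ikzf1, Cd37, Syk and Lyn of these lists were highest in the neutrophil-rich replicate 2. Spi1 had 287 CPM there against 90.4 and 75.9 in replicates 1 and 3. Spib and Cd72 were lowest there. The part of other cells in these counts was not tested. Of genes of other blood and bone cells, all 8 neutrophil, 6 erythroid, 8 macrophage and 5 bone-forming genes tested were called lower in SB4 than in SB2 and higher in BS6 than in BS2. Genes near 0 in the brain-rich libraries, such as Camp, a neutrophil granule gene with 0 to 0.0726 CPM there, passed the filter through the bone-rich libraries alone, so that their calls were fixed as well. Of 7 T cell genes tested 4 fell and 2 rose in SB4 against SB2, and of 5 plasmacytoid dendritic cell genes 3 fell and 2 rose. Ighd, Igkc and Jchain, which encode the delta heavy chain, the kappa light chain and the joining chain, fell by 4.38, 6.42 and 1.88 in SB4 against SB2. Ighd and Igkc, with 0 to 10 counts in each brain-rich library, passed the filter through the bone-rich libraries alone, which fixed their calls. Dntt, the polymerase that adds bases at the joints of rearranging chains, had too few counts to be tested in SB4 against SB2. In BS6 it had 52, 15 and 87 counts and in BS2 1 count in all, and its call in that comparison was likewise fixed by the filter.

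By their labels the 2 bone-rich groups differ in tissue, injured organ and day. Whether the labels of SB2 and BS2 were exchanged was not tested, and if they were, SB2 and BS6 would share tissue and injured organ and differ in day. Between them Ighm was 2.47-fold higher in BS6 than in SB2, a log2 difference of 1.30 (SE 0.20, adjusted p = 0.0327), and was the 1 member called, where 1.11% of 16329 genes were called in that direction. Vpreb3 was 6.54-fold higher (log2 2.71, SE 0.71, adjusted p = 0.0734) and Rag1 differed by 2.22 (SE 0.97, adjusted p = 0.190). Without BS6 replicate 3 these were 1.99 (3.97-fold, adjusted p = 0.130) and 1.12 (2.17-fold, adjusted p = 0.459). Pax5 differed by 1.42 (SE 0.44), Cd79a by 1.10 (SE 0.34) and Cd79b by 1.05 (SE 0.32), with adjusted p from 0.0962 to 0.10, and Ebf1 by 0.51 (SE 0.17, adjusted p = 0.111). All 7 were thus higher in BS6 and 6 had an unadjusted p under 0.05, but a single call was made. Of all 16329 genes 8468 were higher in BS6 and 4764 had such a p in either direction. Libraries of 5 members did not overlap, as for 17.8% of genes in that direction.

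The number of calls changed with the libraries entered and with the method. Without BS6 replicate 2, 6 members were called, against 2.39% of genes: Vpreb3 at 3.17 (adjusted p = 0.00178), Rag1 at 2.77 (0.00704), Pax5 at 1.75 (0.00603), Ighm at 1.41 (0.00753), Cd79a at 1.32 (0.0201) and Cd79b at 1.21 (0.0345), all edgeR log2 differences. Ebf1, at 0.65 with an adjusted p of 0.0075, stayed under the fold threshold. Without any other single library, namely SB2 replicate 1, 2 or 3 or BS6 replicate 1 or 3, no member was called, Ighm included, and 2 to 6 members had an unadjusted p under 0.05. The share of genes called was then 0% without an SB2 library, 0.102% without BS6 replicate 1 and 0.0897% without BS6 replicate 3. DESeq2 called 5 members (4.61% of genes), and so did edgeR with all 12 libraries in one fit (5.24%): Cd79a, Cd79b, Pax5, Vpreb3 and Ighm. The log2 difference of Ighm stayed between 1.07 and 1.41 when one library was left out. The neutrophil and bone-forming sums given above move with replicate 2, and their part in the result was not tested.

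**Figure D3:**
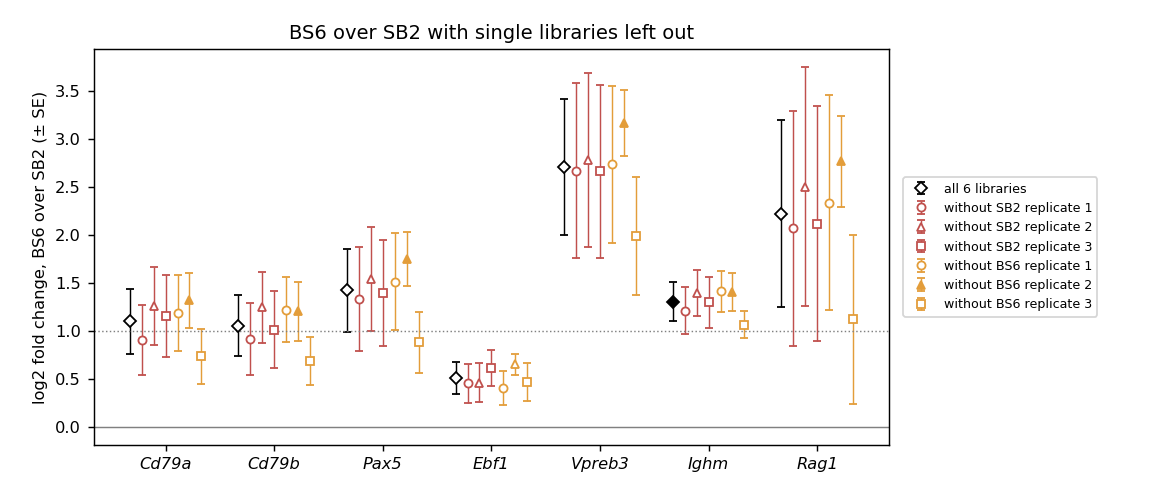
Log2 difference of each gene, BS6 over SB2, with all 6 libraries and with each library left out in turn, with bars for the standard error and filled points where the gene was called. Every difference lies above 0, and without BS6 replicate 2 the points of Vpreb3 (3.17) and Rag1 (2.77) move furthest up, as they move furthest down without BS6 replicate 3 (1.99 and 1.12).

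The levels of the precursor genes were next read against Cd79a, so that the amount of B lineage RNA in a library drops out. Per 100 Cd79a counts, Vpreb3 had 14.5, 9.92 and 9.48 counts in SB2 and 36.8, 12.3 and 41.3 in BS6. The 95% intervals were 27.6 to 48.7 and 33.4 to 50.7 in BS6 replicates 1 and 3 and 7.19 to 19.8 in replicate 2, which lay with SB2 and not with its own group. These intervals cover counting error only, and not the spread between libraries. They can be too narrow even for counting error, since reads without molecular tags are not separate molecules. Rag1 had 9.64, 9.92 and 6.90 per 100 in SB2 and 18.4, 2.58 and 27.5 in BS6, with replicate 2 (95% interval 0.694 to 6.74) again apart from replicates 1 (12.5 to 26.5) and 3 (21.5 to 34.9). Dntt had 7.23, 9.09 and 12.1 in SB2 and 27.4, 9.68 and 27.2 in BS6, where replicate 2 was again lowest, and its level differed by 2.35 on the log2 scale in BS6 over SB2 (SE 0.71, adjusted p = 0.0957 by edgeR). Cd79b by contrast stayed between 73.7 and 98.8 per 100 Cd79a counts in all 6 libraries.

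The genes of later B cells read next were ordered otherwise, and were picked for this reading after their values were seen. Ms4a1, the surface protein CD20 of B cells past the early precursor stages, had 71.1, 70.3 and 49.1 counts per 100 of Cd79a in SB2 and 27.9, 30.3 and 23.1 in BS6. Summed over libraries this was 62.8 (95% interval 52.4 to 75.2) and 26.2 (22.0 to 31.0). Its own level was 4.17 ± 1.29 CPM in SB2 and 3.67 ± 0.953 in BS6 (SD, n = 3 each), with no call by edgeR (log2 0.17 for SB2 over BS6, SE 0.31, adjusted p = 0.755). Most of its list went the other way: of 19 B cell surface and signalling genes tested, 17 were higher in BS6 (median log2 difference 0.78). Of these Tnfrsf13c (2.02, SE 0.34) and Cd24a (2.31, SE 0.37) were called, where 1.11% of all genes were called in that direction. Ighd, the delta heavy chain of mature B cells, had 129, 81.8 and 107 in SB2 and 64.7, 161 and 41.6 in BS6, where replicate 2 was the highest of all 6 and the groups overlapped. Igkc had 225, 165 and 192 per 100 Cd79a counts in SB2 and 267, 2495 and 196 in BS6, and Jchain, made most by antibody-secreting cells, 81.9, 57.0 and 65.5 and then 95.3, 1010 and 70.9. BS6 replicate 2 was thus low in precursor genes and high in Igkc and Jchain. Of the 5 plasma cell genes tested between SB2 and BS6, Xbp1 (215 CPM against 162 and 186 in replicates 1 and 3), Mzb1 (4.83 against 2.22 and 2.80) and Derl3 (2.05 against 0.913 and 1.02) were highest there within BS6, and Prdm1 (7.67 against 23.7 and 21.8) and Sdc1 (49.2 against 135 and 123) were lowest. Ighm, at 841 per 100 there against 643 and 599, was also highest in it. No difference between ratios was tested.

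**Figure D4:**
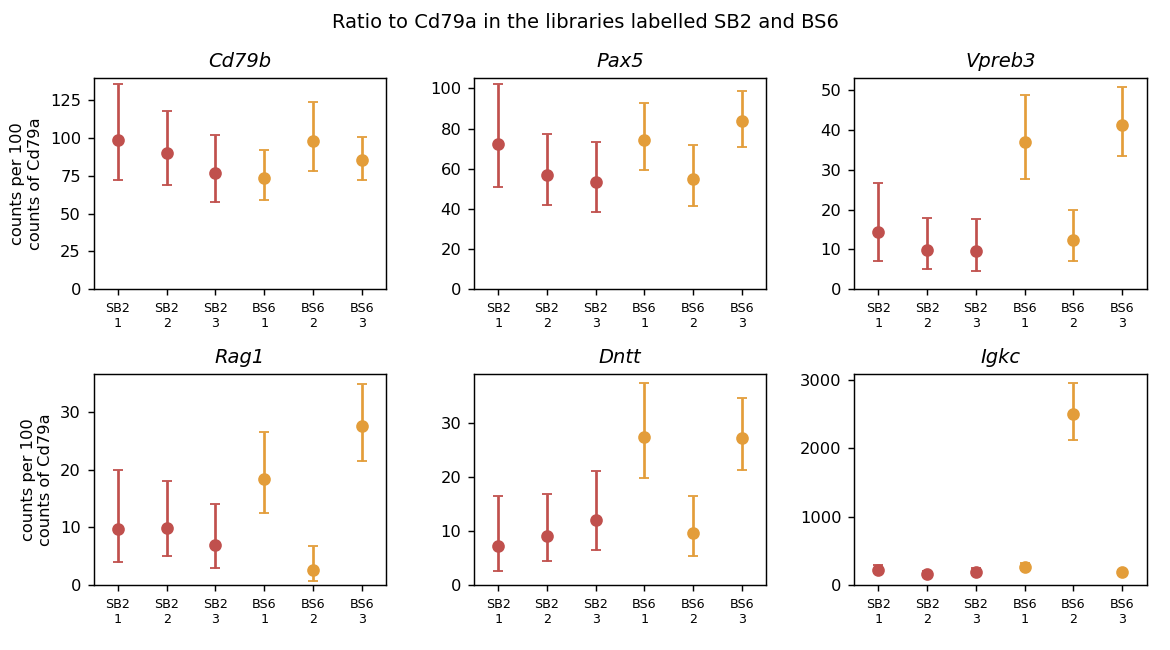
Counts of each gene per 100 counts of Cd79a in the 6 bone-rich libraries, each panel with its own linear axis from 0 and bars for 95% counting intervals. Vpreb3, Rag1 and Dntt are lower in BS6 replicate 2 than in BS6 replicates 1 and 3, while Igkc is higher there (2495), and Cd79b and Pax5 have overlapping intervals in most libraries.

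Read against Ptprc, the CD45 antigen of all leukocytes, BS6 replicate 2 was the lowest of the 6 bone-rich libraries for every member. Per 100 Ptprc counts Cd79a had 5.63, 11.5 and 10.9 in SB2 and 10.9, 3.03 and 21.2 in BS6, so the groups overlapped. Ighm had 39.9, 62.0 and 58.3 and then 70.4, 25.5 and 126.8, and Ebf1 42.3, 51.5 and 67.4 and then 55.1, 13.8 and 59.9. For Vpreb3 the ratio was 0.814, 1.14 and 1.03 in SB2 and 4.03, 0.371 and 8.72 in BS6. Ptprc itself had 309 CPM in BS6 replicate 2 against 113 and 96.3 in replicates 1 and 3, and the part of other blood cells in these ratios was not tested. With Coro1a, another leukocyte gene, in place of Ptprc the ratio for Cd79a was 5.44, 9.67 and 10.9 in SB2 and 10.3, 1.11 and 14.1 in BS6, so that the mean log2 ratio of BS6 over SB2, at -0.61, was brought below 0 by replicate 2, which had 13934 Coro1a counts against 1851 and 2274. With Laptm5 the ratio for Cd79a was 3.22, 5.61 and 5.90 in SB2 and 6.26, 2.82 and 12.04 in BS6, a mean log2 ratio of 0.33, and for Ighm replicate 2 of BS6 (23.7) was not lowest, being above SB2 replicate 1 (22.8).

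In the brain-rich libraries the members did not fall to one shared level. Taken over summed counts and totals, Cd79b in SB4 was 2.61% of SB2 (95% interval 1.12 to 5.22), Cd79a 4.85% (2.79 to 7.90), Pax5 7.65%, Ebf1 8.72%, Vpreb3 15.7% (5.39 to 37.6), Ighm 25% (22.6 to 27.6) and Rag1 35.9% (16.1 to 74.4). The Rag1 share rests mostly on SB4 replicate 3, with 0, 2 and 9 counts in replicates 1 to 3, so its place in this order is not firm. Cd79b had 2, 5 and 1 counts there. In BS2 as a share of BS6, Cd79a was 2.13% (1.16 to 3.59), Ebf1 5.07%, Ighm 10.3% (9.33 to 11.4) and Rag1 11.1% (5.92 to 19.4), which became 23.6% without BS6 replicate 3. The Rag1 share leans the other way on BS2 replicate 1, with 9, 2 and 3 counts in BS2 replicates 1 to 3. The bone gene Col1a1 was at 0.00878% and 0.0144% in the same 2 pairs, Ptprc at 4.96% and 1.78% (3.07% without BS6 replicate 2), and the red cell gene Hbb-bs at 10.6% (18.1% without SB2 replicate 2) and 3.51%. The latter value leans on BS2 replicate 1, with 360 CPM of Hbb-bs against 110 and 166 in BS2 replicates 2 and 3. Ighm had 3000 counts per 100 of Cd79a in SB4 (95% interval 1855 to 5191) and 3236 in BS2 (1909 to 5966), against 582 (517 to 658) in SB2 and 668 (616 to 726) in BS6. Ebf1 had 1059 (643 to 1858) in SB4 and 921 (530 to 1733) in BS2, against 589 (523 to 665) in SB2 and 387 (355 to 422) in BS6, so that both intervals met that of SB2. Jchain had 347 and 286 counts per 100 of Cd79a there, against 66.6 in SB2 and 297 in BS6, and Igkc had 41.2 and 85.7 against 191 and 752. Without BS6 replicate 2 the BS6 values were 80.0 for Jchain and 222 for Igkc.

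**Figure D5:**
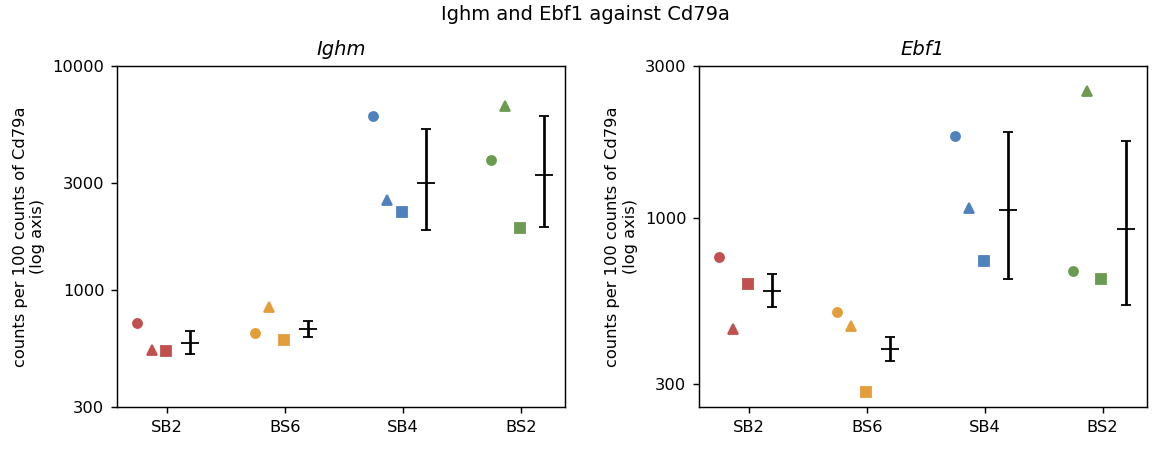
Counts of Ighm (left) and Ebf1 (right) per 100 counts of Cd79a in each library on log axes, with marker shapes for replicates and a bar with its 95% counting interval for the 3 libraries summed. Ighm stands at 3000 in SB4 and 3236 in BS2 against 582 in SB2 and 668 in BS6.

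Between SB4 and BS2 no member was called. Ebf1 (log2 0.33, SE 0.24, adjusted p = 0.630) and Ighm (0.05, SE 0.16, adjusted p = 0.935) passed the filter, neither had an unadjusted p under 0.05 by edgeR, DESeq2 called none either, and 0.147% of 16278 genes were called in either direction. All 7 members overlapped between these groups, where 10% of genes were higher in every SB4 library and 6.51% in every BS2 library. In a fit without a filter all 7 were tested, with 0 called and 0 at an unadjusted p under 0.05, on 1 to 7 counts a library for Cd79a, Cd79b, Pax5 and Vpreb3.

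Over the 12 libraries the closest pair of members was Cd79a and Cd79b, with a root mean square difference of 0.162 between their centred log2(CPM + 1) levels, and the next Pax5 and Ighm at 0.232. Vpreb3 and Rag1 were 0.394 apart, and Ebf1 and Rag1 farthest at 1.44. Among 17256 other genes the nearest to Vpreb3 was Dntt (0.184), and Cd79a lay near Ifi209 (0.229) and Pla2g5 (0.258). Pax5 lay near Epsti1 (0.181) and Pou2af1, a B cell coactivator (0.184), and Ighm near Gas6 (0.206), Ikzf3 (0.209) and Pou2af1 (0.217). Rag1 lay near Gal (0.325), Ly6d (0.326) and Dntt (0.339), Cd79b near Pla2g5 (0.217) and Siglecg (0.219), and Ebf1 near Zfp36l1 (0.153), Exoc3l4 and Adamts10, none of them in the B lineage lists. These distances are descriptions over libraries that share the split into bone-rich and brain-rich groups.

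Markers of other cells moved beside the members. In BS6 over SB2 all 8 neutrophil genes tested had a positive log2 difference (median 3.05), none was called and all 8 had an unadjusted p under 0.05. Their sum rests on replicate 2 (25090 CPM), while replicate 1, at 1454, lay within the SB2 range of 872 to 1552. The 14 further B lineage factors had a median of 1.30, as did the 7 members. The 5 pan-leukocyte genes, all higher in BS6, had a median of 1.27, and the 6 erythroid genes, also all higher, a median of 2.40, with Hba-a2 called (2.46, SE 0.44, adjusted p = 0.0388 by edgeR). The 8 genes of stromal cells that also use Ebf1 had a median of 0.14, near the 0.02 of all genes. Of the B lineage factors 3 were called, Irf4 (1.73, SE 0.31), Irf8 (1.52, SE 0.25) and Bcl11a (1.33, SE 0.28), of which Irf8 is also a macrophage and dendritic cell factor. Of all genes tested 1.11% were called in that direction, and no gene was called when any SB2 library was left out. The part of other blood cells in the members' differences was not tested.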

How the data were processed

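RNA of 12 libraries (3 for each of 4 labelled groups) was sequenced by the authors as paired reads of poly(A) RNA. According to the submitters' processing notes the reads were aligned to mm10 with HISAT2 2.1.0. The authors deposited a table of whole-number counts per gene symbol. The counting program, its annotation and its use of strand are not given in the sources used here, nor whether the deposited counts had been batch-adjusted. The table held 0 columns of other samples.

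Levels are CPM with TMM factors over the 12 libraries. Each comparison was fitted on the whole table with edgeR 4.0.16 (quasi-likelihood, filterByExpr with a minimum count of 10, R 4.3.3) and adjusted by Benjamini-Hochberg over all genes tested, and the code was tested on simulated data. Nothing in the labels says how replicates were kept apart, and p-values measure the spread between these libraries. Genes named are the 7 members, genes of fixed lists (at most 5 of a list by level, besides those singled out in the text) and genes among the 3 nearest to each member, of which some are not reported here. The members and lists were chosen with earlier results of these data known. List genes without a match (among them Vpreb1, Igll1 and Rag2) were not analysed here. Ratios have exact 95% intervals that treat each read as a separate count. Alternatives were DESeq2 1.42.0, RLE, upper-quartile and total-count scaling, other filters, all 12 libraries in one fit, the replicate number as a block, Laptm5 or Coro1a as denominator, and each library left out. Leaving out libraries for shares and for ratios to Cd79a was added after seeing the data.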

Additional observations from a re-analysis of the deposited data

Results flagged for a closer look

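The change from SB2 to SB4 and the change from BS2 to BS6 differed when the difference itself was tested over the 12 libraries (quasi-likelihood test of edgeR, p adjusted by Benjamini-Hochberg), beside 37.8% of 18068 genes with the same direction. On the log2 scale the difference was -11.04 for Cd79b (SE 0.64), -9.81 for Cd79a (SE 0.62), -9.50 for Pax5 (SE 0.75), -7.74 for Ebf1 (SE 0.31, adjusted p = 6.03e-10), -7.26 for Vpreb3 (SE 1.16), -5.20 for Ighm (SE 0.30, adjusted p = 1.17e-08) and -4.57 for Rag1 (SE 1.56). With one library left out Rag1 moved to -6.25 (without SB4 replicate 3), -5.35 (without BS2 replicate 1) and -3.41 (without BS6 replicate 3), Vpreb3 to -8.02 (without BS2 replicate 2) and -6.49 (without BS6 replicate 3), Pax5 to -10.20 (without BS2 replicate 1) and -8.90 (without BS6 replicate 3), and Cd79b to -11.72 (without SB4 replicate 2). Cd79a, Cd79b, Pax5, Vpreb3 and Rag1 had 0 to 9 counts in each brain-rich library and entered this test through the bone-rich libraries alone, so that their calls add nothing to their values. In the separate comparisons 6 members fell from SB2 to SB4 and rose from BS2 to BS6, and Rag1 was not tested. Each of the 2 changes runs between a brain-rich and a bone-rich group, in opposite order, so that tissue and labelled day cannot be told apart.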

How the results depend on the processing

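With at least 10 counts required in every library, 2 members (Ebf1 and Ighm) were called in SB4 against SB2 and 2 in BS6 against BS2, since the others were no longer tested. The other alternatives called 6 in the former and 6 or 7 in the latter, the added gene being Rag1 (no filter, all 12 libraries in one fit, and without BS6 replicate 2, where its log2 difference was 3.72). In BS6 against SB2, 5 members were called with DESeq2 and 5 with all 12 libraries in one fit (Cd79a, Cd79b, Pax5, Vpreb3 and Ighm), and 0 to 6 with one library left out. Over all genes 182 were higher in BS6 and 121 in SB2, 753 and 305 with DESeq2, 947 and 326 with all 12 libraries, 125 and 163 with total counts alone, and 397 and 270 without BS6 replicate 2. With no SB2 replicate 1, 2 or 3 no gene was called, although 2938 to 3494 had an unadjusted p under 0.05.

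Replicate numbers were shared by the groups, and with 3 libraries a group the correlations cannot settle whether they pair the libraries. Same-numbered deviations correlated at -0.09 to 0.06 between SB2 and BS6, where 1 of 3 SB2 libraries was closest to its own number. Between SB4 and SB2 they correlated at -0.0162 to 0.0279, and 2 of 3 SB4 libraries were closest to their own number. With the replicate block 0 members and 0 genes were called in BS6 against SB2, with 3950 genes at an unadjusted p under 0.05, and 6 members in each of SB4 against SB2 and BS6 against BS2. In SB4 against BS2 the block called 22 genes higher and 39 lower, against 14 and 10 without it. There the log2 change of Ighm was -0.12 to 0.17 with one library left out, and reversed without SB4 replicate 1 (-0.12) and BS2 replicate 2 (-0.05). Depth limits all members but Ebf1 and Ighm, with 0 to 9 counts in each brain-rich library. Where no cause is given, the cause was not tested.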

Other observations

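Ligands that hold and feed B cell precursors in marrow were listed as well. Of the 6 listed, 3 were higher in BS6 than in SB2, with a median log2 difference of 0.07. The largest difference downward was that of Igf1 (-1.32, SE 0.34, adjusted p = 0.0726 by edgeR). Tnfsf13b, the survival factor BAFF, had 1.71, 1.47 and 1.83 CPM in SB2 and 3.59, 7.85 and 5.73 in BS6, a log2 difference of 1.79 (SE 0.34, adjusted p = 0.0406 by edgeR). Its receptor Tnfrsf13c had 0.797, 0.999 and 0.550 CPM in SB2 and 2.74, 2.66 and 4.07 in BS6, a difference of 2.02 (SE 0.34, adjusted p = 0.0343). Neither gene overlapped between these groups, and both calls, as all others, were lost when any SB2 library was left out. Cxcl12, which keeps precursors in the niche, had 716, 637 and 725 CPM in SB2 and 327, 497 and 481 in BS6 (log2 -0.65, SE 0.19, adjusted p = 0.0931). Il7, the growth factor of mouse B cell precursors, had 1.60, 3.26 and 2.63 CPM in SB2 and 3.78, 1.99 and 2.86 in BS6, with a difference of 0.22 (SE 0.37, adjusted p = 0.720) and overlapping groups.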
